A study of Mus musculus with 17 samples.

Results

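Genes of cholesterol synthesis were followed in HSPC, the hematopoietic stem and progenitor cells of mouse bone marrow that give rise to all blood cells. The set was given by name, as 7 enzymes (Hmgcs1, Idi1, Fdps, Fdft1, Sqle, Lss and Cyp51) and the sterol sensor Insig1, and its 8 genes are 8 of the 35321 gene symbols in the count table. Polyadenylated RNA was sequenced in 17 libraries of sorted HSPC from wild-type C57BL/6J mice, an inbred strain, and the labels give neither the age of the mice nor the gate of the sort. The mice had received phosphate-buffered saline (PBS, 5 libraries, titled day 0), the bacterial endotoxin lipopolysaccharide (LPS) for 24 h or 72 h (3 libraries each), or LPS plus a blocking antibody to the receptor of interleukin-10 for 24 h or 72 h (3 libraries each), all by injection into the peritoneum. The amounts were 5 micrograms of LPS and 100 micrograms of antibody in the series' design text, whereas the sample labels give the same figures in milligrams. Every antibody group also received LPS, and none of the 17 libraries received the antibody alone.

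Cholesterol is built from acetyl-CoA through mevalonate and isoprenoid units, which are joined to squalene, closed to the ring of lanosterol and trimmed to cholesterol. The genes of this pathway share a switch: when sterol in the endoplasmic reticulum is low, SCAP carries the transcription factor SREBP2 to the Golgi for activation, and when sterol is high, INSIG proteins hold the complex back. Insig1 is itself a target of SREBP2, so its RNA is commonly measured along with that of the enzymes. In hematopoietic cells the pathway supplies membrane, and its intermediate farnesyl diphosphate also feeds dolichol, ubiquinone and the lipid tails of signalling proteins.

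SREBP proteins bind sterol elements in gene promoters, often beside CCAAT and GC boxes, and the bases upstream of 5 of the 8 genes were found in the RefSeq promoter table (build GRCm38.p6). Shown are Hmgcs1, the 1 gene of these 5 with a full match to the sterol element TCACNCCAC, and Lss and Insig1, the members with a called change below. Each is printed 5′ to 3′ on the strand of its gene, and capitals mark matches on either strand to TCACNCCAC, CCAAT (or ATTGG on the printed strand) and GGGCGG (or CCGCCC).
Hmgcs1: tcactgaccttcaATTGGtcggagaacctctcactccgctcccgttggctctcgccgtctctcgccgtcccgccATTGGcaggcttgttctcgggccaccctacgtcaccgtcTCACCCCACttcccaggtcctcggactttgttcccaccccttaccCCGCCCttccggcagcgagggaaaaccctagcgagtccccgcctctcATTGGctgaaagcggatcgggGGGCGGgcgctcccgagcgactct
Lss: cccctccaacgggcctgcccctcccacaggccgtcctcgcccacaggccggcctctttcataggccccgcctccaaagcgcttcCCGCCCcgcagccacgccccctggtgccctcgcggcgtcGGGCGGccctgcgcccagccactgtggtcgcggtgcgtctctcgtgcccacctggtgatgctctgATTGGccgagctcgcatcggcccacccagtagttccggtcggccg
Insig1: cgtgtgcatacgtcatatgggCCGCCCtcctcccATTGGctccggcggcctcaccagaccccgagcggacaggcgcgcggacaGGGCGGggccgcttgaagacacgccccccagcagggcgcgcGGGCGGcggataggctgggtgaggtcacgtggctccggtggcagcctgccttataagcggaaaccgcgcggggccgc
The runs lie at chr13:119690101-119690350 (Hmgcs1), chr10:76531355-76531587 (Lss) and chr5:28071162-28071362 (Insig1), all on the plus strand, and each begins 250 bases before the RefSeq start. They end before the first base that either annotation counts as transcribed, which leaves 250, 233 and 201 bases. The sterol element of Hmgcs1 spans bases 137 to 129 before its start, and its CCAAT boxes begin 237, 176 and 45 bases before the start. Over the whole window of 250 bases the sterol element was found in 1 of the 5 members and in 1.05% of 32851 promoters in the table. CCAAT was found in 5 of the 5 members and in 33.8% of promoters, and GGGCGG in 5 of the 5 and in 32.7%. All of the matches in Idi1, and the CCAAT match in Cyp51, lie in bases that the GENCODE annotation places inside the gene. No 2 marked matches overlap in the printed runs. These are matches of letters, and the libraries hold no measurement of binding.

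All 8 genes passed the filter on low counts. Library totals ran from 10516722 to 16006001 counts, and a member had between 116 counts (Idi1) and 1544 counts (Fdps) in a library. Levels are given as CPM, in which a gene's count is divided by the library total and multiplied by 1e+06, corrected for library composition by edgeR's trimmed mean of M-values (TMM). The scaling factor was 0.799 in LPS library 1 at 24 h and 0.947 to 1.12 in the others. The 8 HSPC markers, among them Kit, Ly6a, Cd34, Flt3 and Procr, were detected in every group, with a summed level of 1580 to 2210 CPM with PBS and 1040 to 1140 CPM with LPS at 24 h. The labels do not say that libraries came from separate mice, so p-values measure the spread between these libraries, which may be technical. In bulk RNA, fewer cells of a type and less RNA per cell cannot be told apart.

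**Figure D1:**
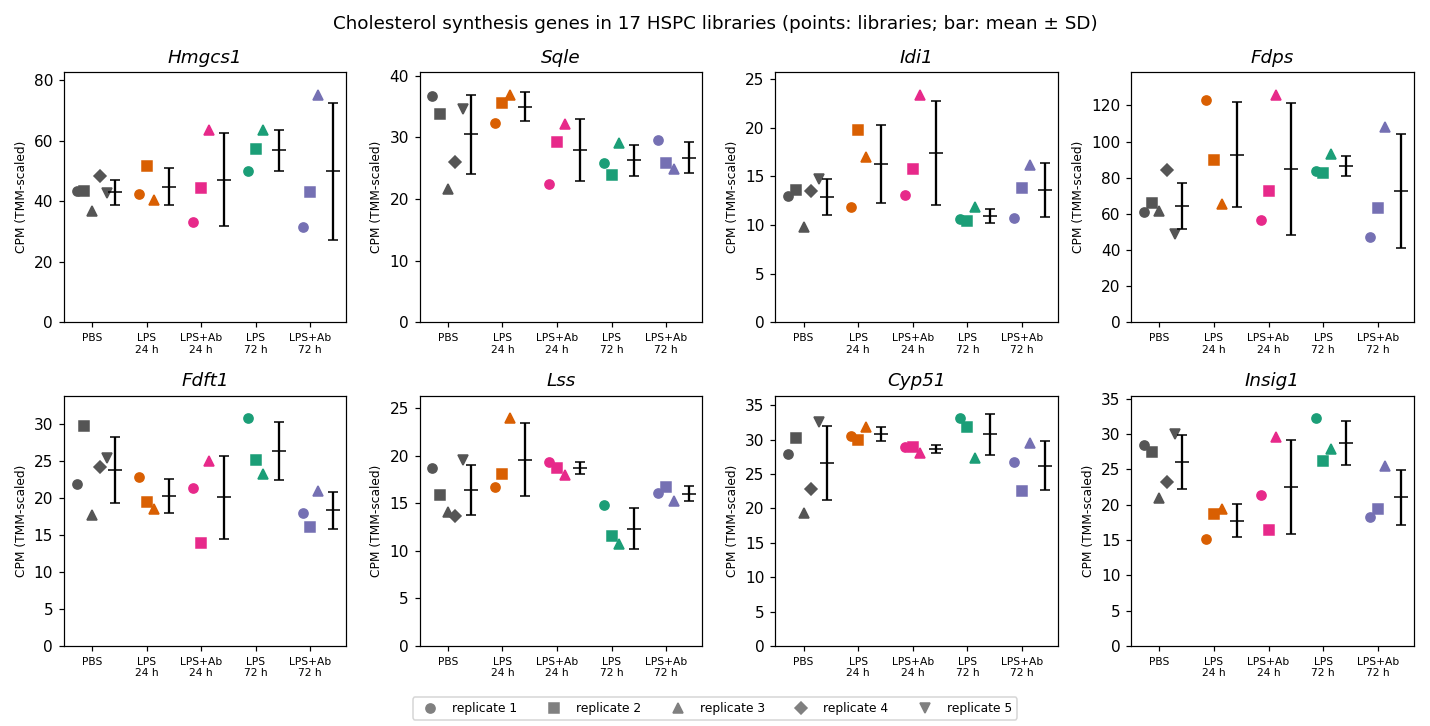
CPM of the 8 genes (y axis, linear, a panel per gene) in each of the 17 libraries by group (x axis); each point is 1 library, coloured by group and shaped by replicate number, and each bar is the group mean with its SD. Insig1 is lowest with LPS at 24 h (15.1 to 19.4 CPM, below every PBS library), Lss is lowest with LPS at 72 h (10.7 to 14.8 CPM), and Hmgcs1 and Fdps spread widely in both antibody groups.

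The set is expressed at middle levels for these cells. Its mean CPM over the 17 libraries ranked from the 39.2 percentile (Idi1) to the 79.1 percentile (Fdps) of the 14920 genes tested. Per kilobase of exon, which allows comparison between genes, the mean level over 17 libraries was highest for Fdps (18.6 CPM per kb), followed by Hmgcs1 (10.4), Insig1 (7.61), Cyp51 (6.43), Sqle (5.3), Fdft1 (5.21), Idi1 (4.01) and Lss (1.54). The exon length of Lss in the annotation is 10787 bases, against 3093 to 5546 for the other 7, and lengths over all annotated isoforms lower the value per kb. Between groups the levels moved little: the highest group mean was 1.17 times the lowest for Cyp51, and 1.62 times for Insig1, the widest of the 8. When the 5 groups are put in order of mean CPM, neighbouring groups overlapped in all 4 pairs for 6 of the genes. The exceptions were Lss and Cyp51, each with 3 of 4 pairs overlapping.

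With LPS at 24 h Insig1 was lower than with PBS, and none of the 7 enzymes passed the test. Of the 8 members 1 was called at an adjusted p below 0.05, against 37.6% of all genes tested (edgeR quasi-likelihood test, Benjamini-Hochberg adjustment). For 1 member the LPS libraries lay wholly on 1 side of the PBS libraries, as they did for 42.8% of all genes. The median log2 change of the 8 members was 0.205 and that of all genes -0.027, and 6 of 8 were above 0. With upper-quartile scaling these values were 0.0758 and -0.156, and 5 of 8 were above 0.

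Insig1 encodes the endoplasmic reticulum protein that retains SCAP when sterols are plentiful. Its level with PBS was 28.5, 27.5, 20.9, 23.2 and 30.0 CPM, and with LPS at 24 h it was 15.1, 18.7 and 19.4 CPM. Every LPS library was below every PBS library, and the nearest values were 19.4 and 20.9 CPM. The log2 change was -0.55 (SE 0.19, 95% interval -0.95 to -0.15), a fold of 0.683, with an adjusted p of 0.0329 in edgeR. The labels do not say whether replicate numbers pair libraries. With the replicate number as a block, the log2 change was -0.54 with an edgeR adjusted p of 0.0846, and the call was lost. It was also lost in edgeR without PBS library 1 (adjusted p 0.0601), 2 (0.0593) or 5 (0.072) and without LPS library 1 (log2 change -0.43, adjusted p 0.151) or 2 (0.0561).

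The other 7 members did not pass the test in this comparison. Fdps, which makes farnesyl diphosphate, had the widest estimate, 0.52 on the log2 scale (95% interval -0.07 to 1.12, edgeR adjusted p 0.151). Its 3 libraries with LPS at 24 h read 123, 89.9 and 65.6 CPM, against 61.1, 65.8, 61.7, 84.4 and 49.1 with PBS, so the groups overlapped at the lower end. Idi1, which isomerises the isoprenoid unit, read 11.9, 19.8 and 17 CPM against 9.81 to 14.7 with PBS. Fdft1, the squalene synthase, was 22.9, 19.5 and 18.5 CPM against 17.7 to 29.7 with PBS. Hmgcs1, the HMG-CoA synthase at the head of the pathway, had a log2 change of 0.06 (95% interval -0.44 to 0.57).

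Lists of neighbouring pathways held called genes too, to be read against the 37.6% of all genes called in this comparison. Of the other 14 cholesterol synthesis enzymes, 1 was called higher and 0 lower: Acat2, which joins acetyl-CoA units for mevalonate, went from 25.8 ± 1.76 CPM (SD, n = 5) to 40.2 ± 7.36 (SD, n = 3), a log2 change of 0.64 with an edgeR adjusted p of 0.00654. Of the 9 sterol sensing and uptake genes, 1 was called higher and 2 lower. Srebf2, which encodes SREBP2, fell from 207 ± 26.4 CPM (SD, n = 5) to 129 ± 26.8 (SD, n = 3), by 0.69 on the log2 scale (edgeR adjusted p 0.00313), and was called in all 8 fits that left out 1 library. The sterol transporter Stard4 was called lower, at -0.41 (edgeR adjusted p 0.0365), but with the replicate block it was -0.32 with an edgeR adjusted p of 0.114. Its call was also lost without PBS library 3 or 5 or LPS library 1 or 3 (highest edgeR adjusted p 0.2). The lipoprotein receptor Lrp8 was higher by 0.54, and with the replicate block its edgeR adjusted p was 0.194. The Lrp8 call was also lost in 6 of the 8 fits that left out 1 library (highest edgeR adjusted p 0.155).

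Those genes of sterol export that were called all fell. Of 8 tested genes of efflux and of the liver X receptors (LXR), the sensors of excess sterol, 0 were called higher and 3 lower. That count is near the 37.6% of all genes called in either direction. The median log2 change of the 8 genes was -1.06 against -0.027 for all genes. Abca1, which loads cholesterol onto lipoprotein, read 33.9, 80.8, 36.4, 28.6 and 54.3 CPM with PBS and 6.3, 11.9 and 8.36 CPM with LPS at 24 h. Every LPS library was below every PBS library, and the change was -2.39 on the log2 scale (SE 0.392, edgeR adjusted p 0.000665). Abcg1, a second exporter of cholesterol, fell by 1.15 (edgeR adjusted p 0.0126), a call lost without LPS library 1 or 3 (highest adjusted p 0.0639).

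Monocyte and macrophage markers fell in the same comparison as these export genes. Of 10 such markers 9 were called lower with LPS at 24 h, their summed level was 422 to 2470 CPM with PBS and 208 to 318 CPM with LPS, and none of the 10 was at 0 in every library of either group. Of 8 B lymphoid markers 3 were called lower, with a summed level of 381 to 1330 CPM against 71.6 to 93.6. Of the 8 HSPC markers 4 were called lower, among them Cd34, Flt3 and Procr, and 0 were called higher. The log2 change was above 0 for 2 of the 8, with a highest value of 1.4. Beside these counts of markers, 37.6% of all genes were called in either direction, which the B lymphoid count is near. The part of these markers in the change of Insig1, Srebf2 or Abca1 was not tested.

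The isoprenoid branch, which draws farnesyl diphosphate away from sterols, rose in 2 of its 8 genes with LPS at 24 h and fell in 0, with 37.6% of all genes called in either direction. Nus1, a subunit of the enzyme that builds dolichol, read 57.1, 45.3, 46.3, 49.5 and 42.4 CPM with PBS and 107, 89.1 and 87.7 CPM with LPS, with a log2 change of 0.97 by edgeR (SE 0.117, adjusted p 0.000314). Pdss1, which makes the tail of ubiquinone, rose by 0.96 (edgeR adjusted p 0.00128). All LPS libraries lay above all PBS libraries for both genes.

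**Figure D2:**
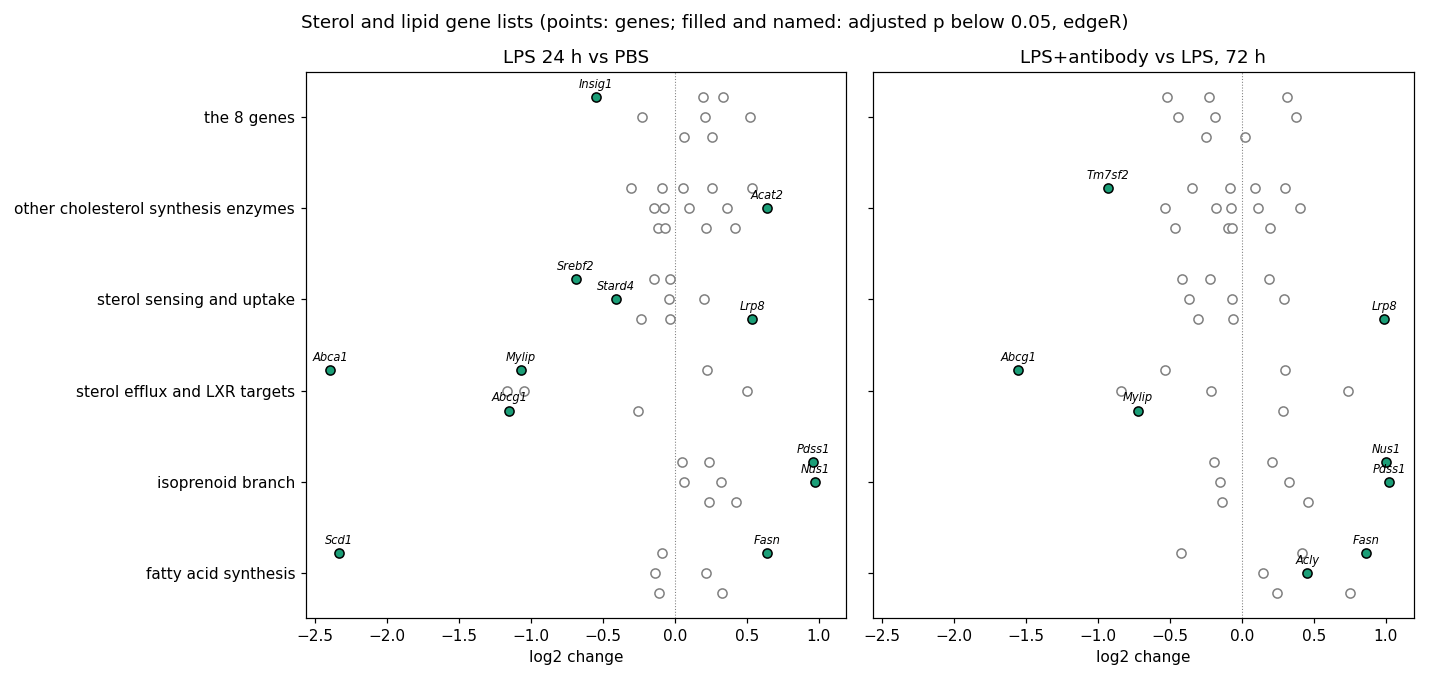
Log2 change (x axis) of each tested gene of the 8 members and of 5 related lists (rows), for LPS at 24 h against PBS (left) and for the antibody at 72 h (right); each point is 1 gene, filled and named where edgeR called it at an adjusted p below 0.05. On the left the members lie between -0.55 and 0.52, Abca1 at -2.39 and Nus1 at 0.97.

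At 72 h after LPS no member differed from PBS by the test. Of the 8, 0 were called by edgeR, as against 0.0201% of all genes (3 genes), DESeq2 also called 0 of 8, and 1 member had an unadjusted p below 0.05, against 1702 of all genes. The groups did not overlap for 1 member, Hmgcs1, against 12% of all genes. Hmgcs1 read 50, 57.2 and 63.6 CPM with LPS at 72 h, above its 5 PBS libraries of 43.4, 43.4, 36.7, 48.5 and 42.7 CPM. Its log2 change was 0.41 (95% interval -0.09 to 0.90, edgeR adjusted p 0.525). Lss, the lanosterol synthase, had the smallest p of the set, with a log2 change of -0.41 (95% interval -0.76 to -0.06, edgeR adjusted p 0.379). In each of the 5 related lists 0 genes were called at 72 h by edgeR, and 0 to 3 genes a list had an unadjusted p below 0.05.

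Between 24 h and 72 h after LPS, 2 members changed in opposite directions: Insig1 rose and Lss fell. That is 2 of 8 against 31.1% of all genes tested, and for 5 of 8 members (Sqle, Idi1, Fdft1, Lss and Insig1) the groups did not overlap, against 45.4% of all genes. The members' median log2 change was -0.0498 and that of all genes 0.02. With upper-quartile scaling the members' median was 0.0713 and that of all genes 0.134, so the sign of the members' median depends on the scaling.

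Insig1 went from 15.1, 18.7 and 19.4 CPM at 24 h to 32.2, 26.2 and 27.8 CPM at 72 h. All 3 later libraries lay above all 3 earlier ones, within the range of PBS or just above it. The log2 change was 0.69 (SE 0.21, 95% interval 0.25 to 1.14), a fold of 1.62, with an edgeR adjusted p of 0.0208. The call was lost in edgeR without LPS library 1 at 24 h (log2 change 0.61, adjusted p 0.0687) and without LPS library 1 at 72 h (0.60, adjusted p 0.0802).

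Lss closes squalene epoxide to lanosterol, the first sterol ring of the pathway. It read 16.7, 18.1 and 23.9 CPM at 24 h and 14.8, 11.5 and 10.7 CPM at 72 h, against 18.7, 15.9, 14.1, 13.7 and 19.5 CPM with PBS. The 72 h libraries lay below the 24 h ones and overlapped the lower PBS libraries. The log2 change from 24 h to 72 h was -0.67 (SE 0.182, 95% interval -1.05 to -0.28), with an edgeR adjusted p of 0.0119. Without LPS library 3 at 24 h, the highest of the group, it was -0.52 with an edgeR adjusted p of 0.0572, and the call was lost.

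The 2 enzymes next in order of p did not pass the adjustment. Idi1 read 11.9, 19.8 and 17 CPM at 24 h and 10.6, 10.4 and 11.8 CPM at 72 h, a log2 change of -0.57 (95% interval -1.08 to -0.06, edgeR adjusted p 0.0807). Without LPS library 1 at 24 h it was -0.73 with an edgeR adjusted p of 0.0392, and Idi1 was called. Sqle, the squalene epoxidase, read 32.3, 35.6 and 36.9 CPM and then 25.8, 23.9 and 29.0 CPM, a log2 change of -0.41 (95% interval -0.81 to -0.01, edgeR adjusted p 0.108). Both were lower in all 3 later libraries than in all 3 earlier ones. Cyp51, the demethylase that acts on lanosterol, read 30.6, 29.9 and 31.9 CPM at 24 h and 33.1, 31.9 and 27.4 CPM at 72 h, with a log2 interval of -0.36 to 0.36.

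The related lists split over the same interval. Srebf2 rose by 0.56 on the log2 scale (edgeR adjusted p 0.0184), a call lost without LPS library 1 or 3 at 24 h or library 1 at 72 h (highest adjusted p 0.0939). Of 8 export and LXR genes, 3 were called higher and 1 lower, led by Abca1 with a log2 change of 1.97 (edgeR adjusted p 0.00255), which read 35.1, 29.9 and 39.3 CPM at 72 h. Of 14 other synthesis enzymes 1 was called higher and 1 lower, beside 31.1% of all genes called. Of 8 isoprenoid genes 0 were called higher and 3 lower, led by Pdss1 at -1.32 (edgeR adjusted p 0.00048) and Nus1 at -1.09 (edgeR adjusted p 0.000154). HSPC markers moved in the same interval, with 3 of 8 called higher and a summed level of 1690 to 2140 CPM at 72 h against 1040 to 1140 at 24 h, and 3 of 10 erythroid markers were called lower. The summed level of the 10 monocyte and macrophage markers was 208 to 318 CPM at 24 h and 362 to 746 at 72 h. Of these 10 markers 1 (Csf1r) was called higher, 4 had a log2 change above 0, and the median log2 change was -0.14. Against PBS at 72 h the median of the 10 was -4.74, with 0 called. For the 8 export and LXR genes that median was -0.0769. The 8 B lymphoid markers summed to 71.6 to 93.6 CPM and then 147 to 388 CPM, with 1 of 8 (Jchain) called higher. The part of these markers in the changes of Insig1, Lss, Srebf2 and Abca1 was not tested.

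**Figure D3:**
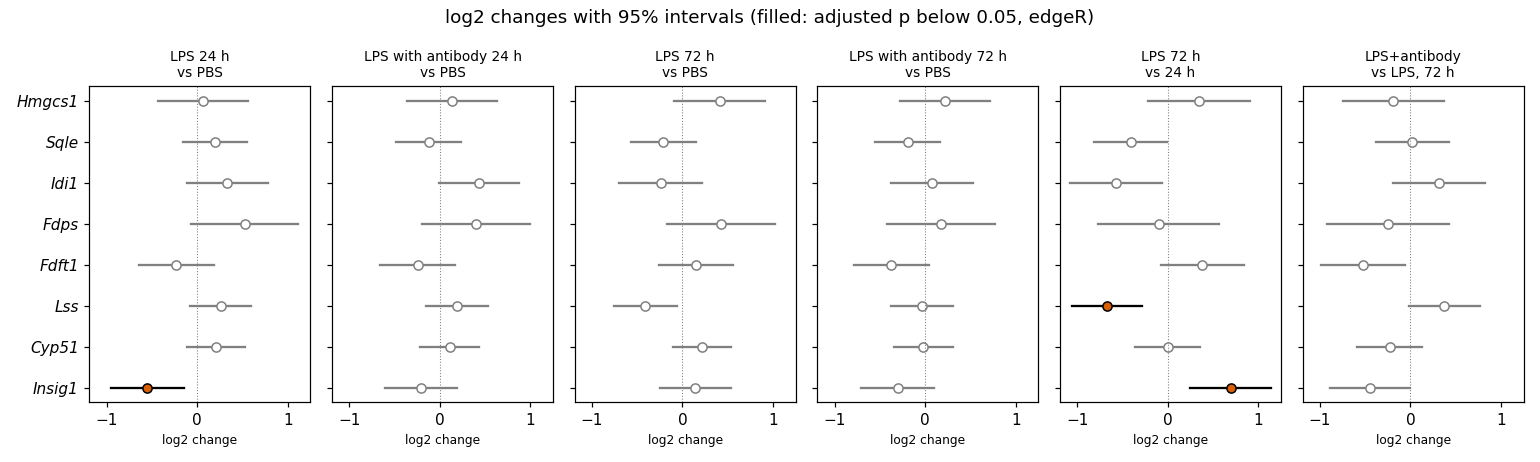
Log2 change (x axis) of each of the 8 genes (rows) in 6 comparisons (panels), with points for the edgeR estimate and lines for its 95% interval; filled points passed an adjusted p below 0.05. The 3 called values are Insig1 at -0.55 for LPS at 24 h against PBS, and Lss at -0.67 and Insig1 at 0.69 for LPS at 72 h against 24 h.

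With LPS and antibody together, no member differed from PBS by the test at either time. At 24 h 0 of 8 were called, against 24.2% of all genes, and at 72 h 0 of 8, against 13.2%, with the groups apart for 0 members each time (31% and 26.9% of all genes). DESeq2 called 0 members in both, and 0 members had an unadjusted p below 0.05. These comparisons and those of LPS alone share the PBS libraries. Side by side, the log2 change of Insig1 from PBS was -0.55 with LPS and -0.21 with LPS and antibody at 24 h, and 0.14 and -0.30 at 72 h. For Lss the values were 0.26 and 0.19 at 24 h, and -0.41 and -0.03 at 72 h.

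Blocking the interleukin-10 receptor was read directly as LPS with antibody against LPS alone. At 24 h 0 of 8 members were called, and 0% of all genes. DESeq2 called 0 members, and 0 members but 273 of all genes had an unadjusted p below 0.05. The groups did not overlap for 2 members (Sqle and Cyp51), against 3.15% of all genes. Sqle read 22.4, 29.3 and 32.1 CPM with antibody and 32.3, 35.6 and 36.9 CPM without it, a log2 difference of -0.32 (95% interval -0.72 to 0.08). Cyp51 read 29.0, 29.0 and 28.0 CPM against 30.6, 29.9 and 31.9 CPM, a log2 difference of -0.10 (95% interval -0.46 to 0.26). Across the 8 members the intervals of the difference reached from -0.80 to 0.78.

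At 72 h 0 of 8 members were called for the antibody, against 15.1% of all genes tested. DESeq2 called 0 of 8 as well, and 2 members (Fdft1 and Insig1) had an unadjusted p below 0.05, against 4852 of all genes. The groups did not overlap for 3 members (Fdft1, Lss and Insig1), against 33.2% of all genes. The members' median log2 difference was -0.209, and that of all genes 0.00587.

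Fdft1, which joins farnesyl units to squalene and so commits them to sterols, read 18.0, 16.1 and 21.0 CPM with antibody at 72 h and 30.8, 25.1 and 23.3 CPM with LPS alone. Its log2 difference was -0.52 (SE 0.217, 95% interval -0.98 to -0.06, edgeR adjusted p 0.11). Insig1 read 18.2, 19.4 and 25.5 CPM with antibody against 32.2, 26.2 and 27.8 CPM, a log2 difference of -0.45 (95% interval -0.89 to -0.003, edgeR adjusted p 0.151). Lss read 16.1, 16.7 and 15.2 CPM with antibody against 14.8, 11.5 and 10.7 CPM, a log2 difference of 0.38 (95% interval -0.01 to 0.76, edgeR adjusted p 0.165). For each of these 3 genes the antibody libraries lay on 1 side of those with LPS alone, and none passed the adjustment.

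The antibody effects at the 2 times were compared within the same fit. Of the 8 members 0 were called for the difference, against 6.35% of all genes, DESeq2 called 0, and 1 member (Insig1) had an unadjusted p below 0.05, against 3616 of all genes. For Insig1 the antibody effect was 0.34 on the log2 scale at 24 h and -0.45 at 72 h, and the difference was -0.79 (SE 0.296, edgeR adjusted p 0.116). Without library 2 of LPS with antibody at 24 h, which has the lowest Insig1 of its group at 16.4 CPM, the difference was -0.96 with an edgeR adjusted p of 0.0412, and Insig1 was called. From 24 h to 72 h within the antibody groups, 0 of 8 members were called and 0% of all genes, DESeq2 called 0 members, and 0 members had an unadjusted p below 0.05, against 635 of all genes. There the groups did not overlap for 1 member, Lss (16.1, 16.7 and 15.2 CPM at 72 h against 19.3, 18.7 and 18.0 at 24 h), against 9.26% of all genes.

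Pathway genes outside the set did pass the test for the antibody at 72 h, where 15.1% of all genes were called. Of 8 isoprenoid genes 2 were called higher and 0 lower, and of 8 tested export and LXR genes 0 higher and 2 lower. Of 9 sterol sensing and uptake genes 1 was called higher and 0 lower. Nus1 read 87.4, 89.9 and 89.0 CPM with antibody and 37.4, 47.2 and 48.4 CPM with LPS alone, a log2 difference of 1.00 (SE 0.135, edgeR adjusted p 0.00122). Pdss1 was higher by 1.02 (edgeR adjusted p 0.00614) and the log2 difference of the exporter Abcg1 was -1.55 (edgeR adjusted p 0.0108). All 3 were called in each of the 6 fits that left out 1 library. Of the 14 other synthesis enzymes 1 was called lower, Tm7sf2, a sterol reductase, with a log2 difference of -0.93 (edgeR adjusted p 0.0202). That call was lost in 4 of those 6 fits, those without LPS library 1 or 2 and those without antibody library 1 or 3 (highest adjusted p 0.104). Lrp8 was higher by 0.99 (edgeR adjusted p 0.0108), a call lost without LPS library 1 or 2 (highest adjusted p 0.0638). The log2 difference of Mylip, of the export and LXR list, was -0.72 (edgeR adjusted p 0.0263). The Mylip call was lost in each of the 6 fits (highest edgeR adjusted p 0.0962).

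**Figure D4:**
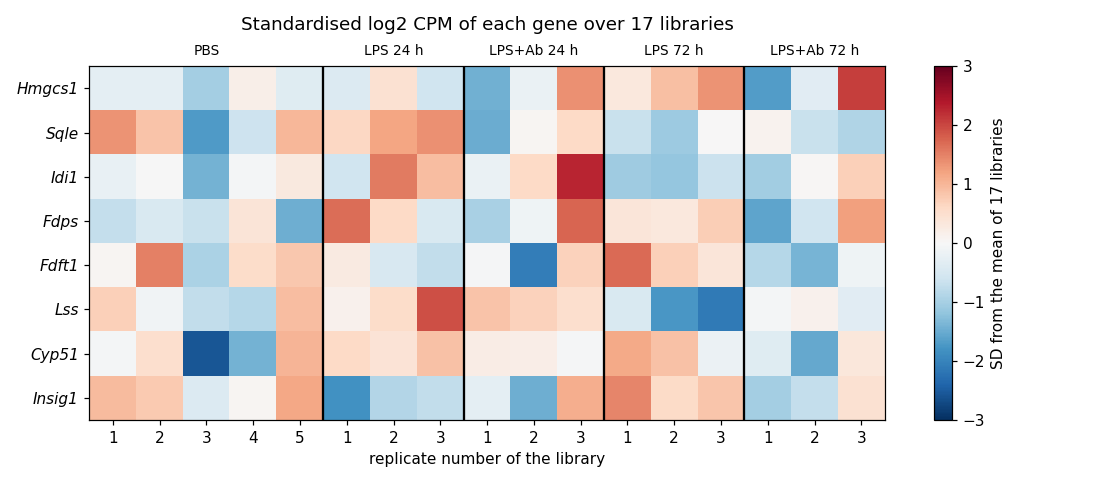
Level of the 8 genes (rows) in the 17 libraries (columns, by group), as log2 CPM standardised per gene over the 17 libraries (colour, in SD). PBS library 3 is low for most genes, and library 3 is high for most genes in both antibody groups.

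Across libraries the members followed each other to unequal degrees. The correlation (Pearson's r over 17 libraries, which share total depth and cell makeup) of each member with the mean of the other 7 ran from 0.0115 for Lss to 0.533 for Cyp51. The closest pair was Hmgcs1 and Fdps (r 0.757), then Fdft1 and Insig1 (0.742), while Hmgcs1 and Lss ran in opposite directions (-0.421). With the group means removed, r was higher for 7 of the 8 members, all but Fdps (0.325 and then 0.233). Insig1 had the widest shift, from 0.301 to 0.852, and Idi1 went from 0.499 to 0.736, Fdft1 from 0.364 to 0.552 and Hmgcs1 from 0.45 to 0.544. These values describe the libraries and carry no test.

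The spread within groups followed single libraries. PBS library 3 was the lowest of the 5 PBS libraries for 6 of the 8 members, all but Fdps and Lss, with 21.6 CPM of Sqle and 19.4 CPM of Cyp51. Library 3 of the antibody group was the highest of its 3 for 6 of the 8 members at 24 h and again for 6 of the 8 at 72 h. Hmgcs1 read 33.3, 44.4 and 63.7 CPM in antibody libraries 1 to 3 at 24 h and 31.5, 43.1 and 75.3 CPM at 72 h. Fdps read 56.4, 72.5 and 126 CPM and then 47.4, 63.1 and 108 CPM. For these genes the spread within the antibody groups was wider than any difference between group means, with SDs of 22.7 CPM (Hmgcs1) and 31.4 CPM (Fdps) at 72 h, n = 3.

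Erythroid markers ran the other way in the same antibody libraries. The summed level of the 10 markers was 2410, 593 and 126 CPM in libraries 1 to 3 at 24 h and 1350, 315 and 68.8 CPM at 72 h. The summed level of 8 neutrophil granule markers was 4740, 11000 and 12400 CPM at 24 h and 3770, 10800 and 12600 CPM at 72 h. The 10 G2/M genes of dividing cells summed to 2250, 2200 and 2900 CPM at 24 h and 2320, 2500 and 3190 CPM at 72 h. Library 3, with the most Hmgcs1 and Fdps, had the least erythroid and the most G2/M signal of its group at both times. With LPS alone at 72 h the erythroid sum was 357, 170 and 71 CPM in libraries 1 to 3. There Hmgcs1 read 50, 57.2 and 63.6 CPM and Fdps 83.8, 82.6 and 93.1 CPM. With LPS alone at 24 h the erythroid sum was 993, 518 and 1040 CPM. There Hmgcs1 read 42.4, 51.8 and 40.4 CPM and Fdps 123, 89.9 and 65.6 CPM. The part of these markers in the levels of Hmgcs1 and Fdps was not tested.

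The 10 tested genes outside the set with the closest pattern to its mean, by Pearson's r over the 17 libraries, had r from 0.705 to 0.772. They were Proscos (0.772), Btbd6 (0.759), Cbx1 (0.755), Acsl3 (0.753), Msmo1 (0.739), 2310040G24Rik (0.729), Ywhaq (0.728), Dck (0.727), Olfml3 (0.724) and Tmco1 (0.705). Msmo1, a sterol methyl oxidase that acts downstream of Cyp51, was the 1 gene of the fixed pathway lists among them, with r of 0.846 once group means were removed.

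Overlapping gene models may limit how firmly some levels can be read, since the strand setting and the rule for reads shared by genes are not given in the sources used here. The shared bases below are counted over whole gene spans, introns included, and the overlap of exons was not measured. Fdps (chr3:89093588-89101959, minus strand, build GRCm38) shares 7512 bases with Gm43738, a protein-coding model on the same strand, which held 670 to 1532 counts per library against 564 to 1544 for Fdps. Hmgcs1 (chr13:119690379-119708260, plus strand) shares 6190 bases with the antisense gene Gm48342, which held 81 to 223 counts. Lss (chr10:76531588-76557138, plus strand) shares 11268 bases with the antisense gene 4930483K19Rik, which held 5 to 20 counts. Fdft1 (chr14:63145150-63179578, minus strand) shares 774 bases with Ctsb on the opposite strand, which held 2924 to 13522 counts against 172 to 387 for Fdft1. Cyp51 (chr5:4081145-4104746, minus strand) shares 166 bases with Akap9 on the opposite strand, which held 523 to 1925 counts against 241 to 500 for Cyp51. Idi1 (chr13:8885501-8892451, plus strand) shares 323 bases with Gm48574, which held 1 to 17 counts. Insig1 (chr5:28071363-28078662, plus strand) and Sqle (chr15:59315077-59331192, plus strand) overlap no other gene of the GENCODE vM21 annotation.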

How the data were processed

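HSPC RNA was measured in 17 libraries in 5 groups, taken from the sample titles. The authors deposited raw counts per gene symbol, made with HISAT2 2.2.0 and featureCounts 2.1.1 of Subread on GRCm38, per the submitters' processing notes. Strand setting and annotation are not given in the sources used here. There were 0 columns that matched no label, and 13321 genes had 0 counts throughout.

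Counts were analysed with edgeR 4.0.16 (R 4.3.3): filterByExpr (minimum count 10, minimum total 15), TMM scaling, and 1 quasi-likelihood fit (glmQLFit, glmQLFTest) over all 17 libraries with a mean per group, for 9 comparisons of 14920 genes. Benjamini-Hochberg adjustment ran over all tested genes of a comparison, with a threshold of 0.05. Standard errors are the change divided by the square root of F, and 95% intervals use them. Correlations used log2 CPM with a prior count of 2. The scripts were tested on simulated data. Total counts of 10516722 to 16006001 per library set the counting precision.

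The 8 members, the 5 related lists, the markers and the tests were chosen with earlier results of these data known. In each related list the 2 called genes with the largest change per comparison may be named, and other named genes were chosen after their values were seen. Alternatives were DESeq2's size factors in edgeR, upper-quartile factors, DESeq2 1.42.0, no filter, leaving out each library, and a replicate block; those for Stard4 were added after seeing the data. The labels name no batch and do not say that equal replicate numbers share a mouse or day. Deviations from group means of same-numbered libraries correlated at 0.158 to 0.191 between PBS and LPS at 24 h, above 0.1 in every pair. In no other pair of groups was every value above 0.1. The means of the other pairs of groups ran from -0.152 (LPS and LPS with antibody at 24 h) to 0.466 (the antibody groups). These values do not establish that the numbers pair libraries, and the block was fitted over all 17 libraries as an alternative. Gene coordinates are from GENCODE vM21 and promoter sequences from RefSeq. Of the lists, Ch25h (at most 3 counts) and Me1 (at most 13) failed the filter. Some items of these lists are not reported here.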

Additional observations from a re-analysis of the deposited data

Results flagged for a closer look

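Apoe, an apolipoprotein of the export list, stood at 648 CPM in PBS library 2, while the other PBS libraries lay between 152 and 264 CPM. The gap from 264 to 648 CPM is 0.775 of the range of the group, above Dixon's critical value of 0.71 for 5 samples. Of 23 genes checked this was the 1 case, and chance marks about 1 in 20 groups. The same library had the highest summed level of the 10 monocyte and macrophage markers, 2470 CPM against 422 to 988 CPM in the other PBS libraries.

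The antibody effect on 2 isoprenoid genes differed between the times by edgeR's test of the difference with Benjamini-Hochberg adjustment. For Nus1 the difference (72 h minus 24 h) was 1.22 on the log2 scale (SE 0.189, adjusted p 0.00831), and it was called in all 12 fits that left out 1 library. For Pdss1 it was 1.31 (SE 0.293, adjusted p 0.0187), and the call was lost in edgeR without LPS library 1 at 72 h or without antibody library 1 or 3 at 24 h (highest adjusted p 0.0641).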

How the results depend on the processing

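No called value changed direction under any alternative run. Among the alternative values of single called genes, 441 kept the call and 138 lost it. For LPS at 24 h against PBS, 0 members were called with no filter on low counts (Insig1 adjusted p 0.0553 in edgeR) and 0 with the replicate block, and leaving out 1 library gave 0 to 1. For LPS at 72 h against 24 h leaving out 1 library gave 1 to 2 members called, and for the difference of antibody effects 0 to 1. In the other 6 comparisons no alternative called a member. Counts of genes called over the whole table moved more. DESeq2 called 178 genes in place of 3 for LPS at 72 h against PBS, 1 in place of 0 for the antibody at 24 h, 2 in place of 0 for the antibody groups across time, and 1709 in place of 947 for the difference of antibody effects, which had 617 with no filter. With the replicate block the counts were 0 for LPS at 72 h against PBS, 1721 in place of 3605 and 374 in place of 1975 for LPS with antibody against PBS at 24 h and 72 h, and 333 for the difference; the block changed 0 other counts of genes by more than 1.5 times, and 16 calls of single genes were lost under it. Leaving out 1 library gave 3361 to 5443 genes for LPS at 24 h against PBS (5616 with all; lowest without LPS library 1), 0 to 3 at 72 h, 877 to 3420 and 583 to 2066 for LPS with antibody against PBS at 24 h (lowest without antibody library 2) and 72 h (lowest without antibody library 3), 769 to 2279 for the antibody at 72 h (2256 with all; lowest without LPS library 1), 3199 to 4507 for LPS at 72 h against 24 h, and 231 to 1544 for the difference (lowest without LPS library 1 at 72 h). Upper-quartile factors moved the median of all genes by over 0.1 for LPS at 24 h, from -0.027 to -0.156. They did so too for LPS with antibody at 24 h (from -0.001 to -0.11) and for LPS at 72 h against 24 h (from 0.02 to 0.134). For the difference of antibody effects the median also moved by over 0.1, from 0.0113 to -0.0917. The share of called genes that were higher moved from 50.7% to 36.8%, from 48.3% to 32.5% and from 47.2% to 59.2% in the first 3 of these. It moved from 51.4% to 32.8% for LPS with antibody at 72 h, from 57.1% to 42.4% for the antibody at 72 h and from 63.5% to 49.7% for the difference. The causes were not tested. Each member had 116 to 1544 counts in a library, and each group rests on 3 or 5 libraries, which limits the intervals above.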

Other observations

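Fatty acid synthesis shares its SREBP regulators with cholesterol synthesis, and 7 of the 8 listed genes were tested. With LPS at 24 h against PBS 1 was called higher and 1 lower by edgeR with Benjamini-Hochberg adjustment, beside 37.6% of all genes called. Scd1, which desaturates fatty acids, read 3.71, 9.05, 2.93, 7.77 and 2.67 CPM with PBS and 0.556, 1.92 and 0.574 CPM with LPS, a log2 change of -2.33 (adjusted p 0.0105). That call was lost without LPS library 1 or 3 (highest adjusted p 0.06). Fasn, the fatty acid synthase, read 340, 227, 228, 257 and 299 CPM with PBS and 387, 415 and 462 CPM with LPS. Its log2 change was 0.64 (edgeR adjusted p 0.0261, and 0.0864 with the replicate block). The Fasn call was also lost in 4 of the 8 fits that left out 1 library (highest edgeR adjusted p 0.0838).

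From 24 h to 72 h after LPS 0 of the 7 genes were called higher and 3 lower, beside 31.1% of all genes called. Fasn went from 387, 415 and 462 to 183, 165 and 217 CPM, and the log2 change was -1.16 (edgeR adjusted p 0.00254), called in all 6 fits that left out 1 library. With antibody at 72 h Fasn read 306, 356 and 367 CPM, above the 3 libraries with LPS alone, a log2 difference of 0.86 (edgeR adjusted p 0.0261). That call was lost without LPS library 1 or 2 or antibody library 3 (highest adjusted p 0.0983). At 72 h 2 of the 7 genes were called higher for the antibody, Fasn and Acly, and 0 lower, beside 15.1% of all genes called.

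Libraries with the same number in the antibody groups at 24 h and 72 h had deviations from their group means that correlated at 0.466 on average, from -0.0217 to 0.723. The labels do not say what the numbers share.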
